A study of Mus musculus with 3 samples.

Results

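Nr4a1, Egr1, Nab2, Fos, Fosb, Jun, Junb, Jund and Myc, immediate early genes with 1 of their partners, were followed in single naive CD4 T cells of C57BL/6 mice. The rows were taken by gene symbol, and all 9 were present among the 14355 genes of the table, each with transcripts in each of 3 plates. The mice were 8 to 12 weeks old, male and female animals were pooled, and cells of spleen and lymph nodes were combined. Cells were used straight after the sort, with no stimulation or culture stated, and were live singlets with surface TCRb, CD4, CD62L and CD5 and without CD8, CD25 and CD44. They were profiled by SORT-seq, a form of CEL-Seq2 in wells that counts transcript 3' ends with unique molecular identifiers (UMIs). The cytometer's CD5 signal was kept for each well, and the authors placed each cell in a Low, Middle or High CD5 class. All cells share genotype, strain and treatment, so CD5, the plate and the well number are the variables that the labels and files give. The surface protein CD5 is carried at a level that naive T cells set by how strongly their T cell receptor (TCR) meets self-ligands, and the study asked what differs between cells along that range.

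Immediate early genes are switched on within minutes of a stimulus because their activators are already in the cell. In T cells, TCR signals reach Egr1 and Fos mainly through a MAP kinase cascade and serum response factor, and reach Nr4a1 largely through calcium and MEF2 factors, so that Nr4a1, whose protein is also named Nur77, is a common reporter of recent TCR signals. Fos, Fosb, Jun and Junb are among the genes that are also induced when tissue is minced, warmed or digested. Fos proteins pair with Jun proteins to form the transcription factor AP-1, Nab2 binds Egr proteins and restrains them, and Myc drives the growth of activated lymphocytes.

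The promoters of 4 members that moved differently between plates are shown, since cyclic AMP and calcium signals act on several early genes through the cyclic AMP response element. The window runs from 250 bases before to 50 after the RefSeq start on GRCm38.p6 and is read 5′ to 3′ on the gene's own strand: chr15:101266596-101266895 (plus) for Nr4a1, chr12:85473640-85473939 (plus) for Fos, chr7:19309996-19310295 (minus) for Fosb and chr4:95052173-95052472 (minus) for Jun. Capitals mark the 5-base core of that element, TGACG or its other strand CGTCA.
Nr4a1: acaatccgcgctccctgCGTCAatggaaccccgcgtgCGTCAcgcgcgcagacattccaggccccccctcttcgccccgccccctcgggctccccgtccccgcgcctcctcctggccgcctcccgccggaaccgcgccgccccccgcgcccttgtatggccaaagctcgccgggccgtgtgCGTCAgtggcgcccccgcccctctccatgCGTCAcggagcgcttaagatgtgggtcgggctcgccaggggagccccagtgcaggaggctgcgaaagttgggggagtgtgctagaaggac
Fos: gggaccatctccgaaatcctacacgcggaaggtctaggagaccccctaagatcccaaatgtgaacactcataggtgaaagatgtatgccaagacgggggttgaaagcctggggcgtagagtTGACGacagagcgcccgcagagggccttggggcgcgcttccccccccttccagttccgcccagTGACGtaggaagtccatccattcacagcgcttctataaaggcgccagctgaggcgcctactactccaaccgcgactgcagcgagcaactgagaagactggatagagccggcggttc
Fosb: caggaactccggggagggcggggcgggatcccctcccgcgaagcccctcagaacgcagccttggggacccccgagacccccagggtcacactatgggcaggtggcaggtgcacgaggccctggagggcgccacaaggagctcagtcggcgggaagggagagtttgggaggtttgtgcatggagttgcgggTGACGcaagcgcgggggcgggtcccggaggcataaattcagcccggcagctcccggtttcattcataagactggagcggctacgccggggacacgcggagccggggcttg
Jun: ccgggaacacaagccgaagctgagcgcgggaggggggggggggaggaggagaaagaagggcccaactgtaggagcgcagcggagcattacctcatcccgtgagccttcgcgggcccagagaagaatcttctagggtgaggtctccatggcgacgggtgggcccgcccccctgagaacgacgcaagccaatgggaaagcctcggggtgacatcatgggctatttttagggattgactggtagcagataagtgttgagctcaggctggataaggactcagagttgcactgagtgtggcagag
The core was found 4 times in the Nr4a1 window, 2 times in that of Fos and 1 time in that of Fosb, and it was not found in that of Jun. Of 32544 RefSeq promoter windows of this length, 20.9% hold it on either strand, so a single match is common. The whole element TGACGTCA, which 1.80% of all windows hold, the AP-1 site TGACTCA or TGAGTCA, which 5.19% hold, and the CArG box of serum response factor, which 1.64% hold, had no match in these 4 windows. A match is a description of the letters and not a bound site.

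By the GENCODE M21 annotation of GRCm38, the assembly of mm10, Nr4a1 lies on chromosome 15 at 101254269 to 101274795, Egr1 on chromosome 18 at 34859823 to 34864984 and Nab2 on chromosome 10 at 127660918 to 127668568. Fos lies on chromosome 12 at 85473890 to 85477273, Fosb on chromosome 7 at 19302696 to 19310051 and Jun on chromosome 4 at 95049034 to 95052222. Junb and Jund lie on chromosome 8, at 84974484 to 84978718 and 70698949 to 70700616, and Myc lies on chromosome 15 at 61985391 to 61990374. The authors' counting has a strand setting not given in the sources used here, and without strand the reads of overlapping genes cannot be told apart. Nab2 shares 40 bases with Stat6, 1668 with Nemp1 and 1646 with the antisense gene Gm16229, all on the opposite strand, and Junb shares 351 bases with Prdx2. Jun and Jund overlap the antisense genes Junos, by 689 bases, and Gm11175, by 919 bases.

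The 697 cells held 3244019 UMIs, with 1404157 in the 324 cells of plate 3, 726230 in the 172 cells of plate 1 and 1113632 in the 201 cells of plate 2. The median cell of plate 3 held 3952 UMIs, that of plate 1 held 3749 and that of plate 2 held 5449, and there were 174 Low, 349 Middle and 174 High cells. Cd4 was found in 95.7% of cells, Cd3e in 80.6% and Cd8a in 1.004%. Cd5 mRNA followed the CD5 class in plates 1 and 3, with log2 ratios of High to Low of 2.68 and 2.66, but gave 0.06 in plate 2. Plate 2 thus goes against its CD5 labels, and the fits by CD5 are given below with and without it. The labels do not say whether different animals went on different plates, so the spread that p-values measure is that between sums within 3 plates and may be technical. Intervals on shares are exact (Clopper-Pearson, 95%) and cover counting error only.

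The members fell into genes found in most cells and genes found in few. Jund was found in 89.1% of cells (interval 86.5 to 91.3), Jun in 71.3% (67.8 to 74.6), Junb in 69.7% (66.2 to 73.1) and Fos in 54.7% (50.9 to 58.4). Fosb was found in 27.3% (24.0 to 30.7). Nr4a1 was found in 14.2% (11.7 to 17.0), Myc in 13.3% (10.9 to 16.1), Egr1 in 8.03% (6.13 to 10.3) and Nab2 in 7.89% (6.00 to 10.1). A cell held transcripts of 3.56 members on average, and 9 of 697 cells held none. Cells that held a member were deeper than cells that did not. For Nr4a1 the median was 5472 UMIs in cells with it and 3940 in cells without it. Shares were therefore also taken after each cell was thinned at random to 2119 UMIs, which 557 cells reached (257 in plate 3, 124 in plate 1 and 176 in plate 2). At that depth the mean was 2.78 members per cell, with Nr4a1 in 8.82% of cells, Egr1 in 5.03%, Myc in 8.01%, Fosb in 17.7% and Fos in 42.4%.

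Between plates, Fosb and Jun stood apart, and Nr4a1, Egr1 and Myc did not move with them. Fosb, a Fos family partner in AP-1, was found in 45.7% of cells of plate 3 (interval 40.2 to 51.3), against 9.88% in plate 1 (5.86 to 15.4) and 12.4% in plate 2 (8.21 to 17.8). Jun, the main AP-1 partner of Fos proteins, was found in 87.0% of plate 3 cells (82.9 to 90.5), against 60.5% in plate 1 (52.7 to 67.8) and 55.2% in plate 2 (48.1 to 62.2). Fos itself was found in 67.0% of plate 3 cells (61.6 to 72.1), against 40.7% in plate 1 (33.3 to 48.4) and 46.8% in plate 2 (39.7 to 53.9). For these 3 genes and for Jund the interval of plate 3 did not overlap those of the other plates. The share of all genes for which this holds was not taken. Thinned to 1 depth, Fosb was in 31.01% of plate 3 cells, against 7.42% in plate 1 and 5.40% in plate 2, and Jun in 77.7%, against 47.4% in plate 1 and 38.1% in plate 2. Jund, which encodes the Jun protein that resting cells keep, was in 95.1% of plate 3 cells, against 84.3% in plate 1 and 83.6% in plate 2. Junb had 73.5% of plate 3 cells, against 58.7% in plate 1 and 73.1% in plate 2. Nr4a1 was in 15.1% of plate 3 cells, against 14.5% in plate 1 and 12.4% in plate 2, and Egr1 in 7.41%, against 7.56% in plate 1 and 9.45% in plate 2. Nab2 had 11.1% of plate 3 cells, against 5.81% in plate 1 and 4.48% in plate 2, and Myc had 11.1%, against 12.8% in plate 1 and 17.4% in plate 2. On average a plate 3 cell held 4.13 members, against 2.95 for a plate 1 cell and 3.15 for a plate 2 cell.

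**Figure D1:**
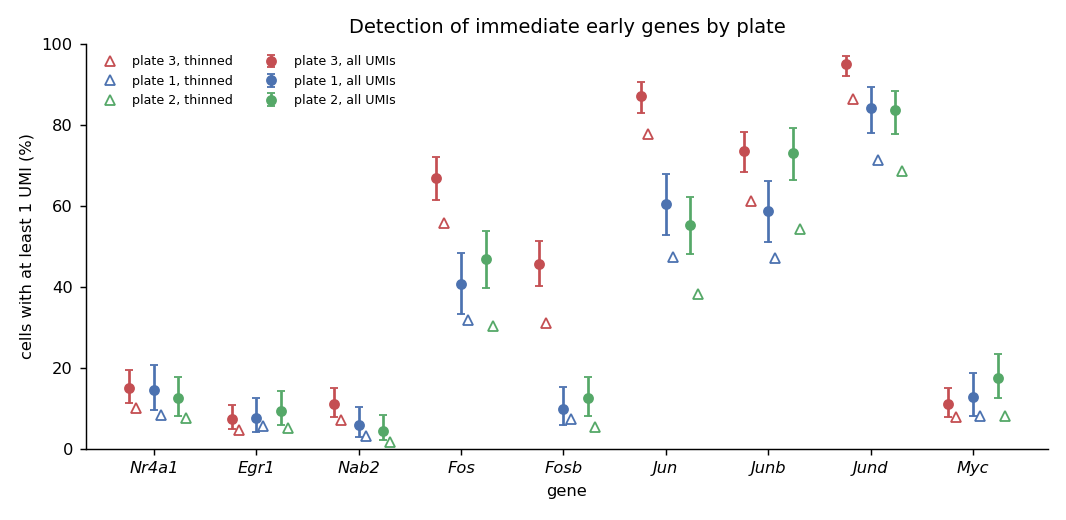
Share of cells with at least 1 UMI of each gene (percent, y axis) in plates 3, 1 and 2, with circles for all UMIs, bars for exact 95% intervals and open triangles for cells thinned to 2119 UMIs. Fosb sat at 45.7% of plate 3 cells, against 9.88% in plate 1 and 12.4% in plate 2, while Nr4a1 sat between 12.4% and 15.1% in all 3.

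The levels followed the shares for Fosb and Jun. Levels are given in CPM, the UMIs of a gene per 1000000 UMIs of its plate or class, scaled between sums by TMM. Ratios of whole plates carry intervals for counting error only. Fosb had 199 CPM in plate 3, against 57.5 CPM in plate 1 and 47.6 CPM in plate 2, a ratio of 3.46 to plate 1 (2.49 to 4.93) and of 4.19 to plate 2 (3.10 to 5.74). Jun had 855 CPM in plate 3, against 362 CPM in plate 1 and 307 CPM in plate 2, at ratios of 2.36 (2.06 to 2.71) and 2.78 (2.46 to 3.15). Nab2, on few UMIs (54 in plate 3, 13 in plate 1 and 11 in plate 2), had ratios of 2.12 (1.14 to 4.24) and 3.85 (1.99 to 8.16). These 3 of 9 members were at least 2-fold higher in plate 3 than in both other plates, which was true of 1.30% of the 7771 genes with a mean of at least 10 counts per plate. None of the 9 was at least 2-fold lower, against 1.54% of genes. The 2-fold rule was set with the plate values known, and with 1 plate on a side there is no test. Fos had 502 CPM in plate 3, against 296 CPM in plate 1 and 250 CPM in plate 2, at ratios of 1.70 (1.45 to 1.99) and 2.01 (1.75 to 2.32). Jund had ratios of 1.27 and 1.54 and Junb of 1.29 and 1.07. Myc had 55.9 CPM in plate 3, 54.7 CPM in plate 1 and 53.1 CPM in plate 2. Nr4a1 and Egr1 had ratios below 1. Nr4a1 had 61.6 CPM in plate 3, against 99.6 CPM in plate 1 and 80.5 CPM in plate 2, at ratios of 0.619 (0.447 to 0.860) and 0.765 (0.562 to 1.04). Egr1 had 31.5 CPM in plate 3, against 54.7 CPM in plate 1 and 50.3 CPM in plate 2, at ratios of 0.576 (0.366 to 0.911) and 0.627 (0.412 to 0.949). A single cell held 28 of the 71 Nr4a1 UMIs of plate 1, and without the top cell of each member the ratio of plate 3 to plate 1 was 0.956 for Nr4a1 and 0.858 for Egr1. Against plate 2 it was then 0.739 for Nr4a1 and 0.643 for Egr1.

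The plate difference held across CD5 and across each plate. Fosb was at 160 to 233 CPM in the 3 CD5 classes of plate 3 and at 178 to 232 CPM in 4 equal bins of its cells by well number, against 44.3 to 70.5 CPM in the classes of plates 1 and 2 and 6.74 to 98.3 CPM in their bins. Jun was at 787 to 975 CPM in the classes of plate 3 and 747 to 1008 CPM in its bins, against 266 to 401 CPM in the classes of plates 1 and 2 and 287 to 445 CPM in their bins. Neither gene's values in plate 3 overlapped those of the other plates in any class or bin. The share of all genes for which this holds was not taken. Classes and bins divide the cells of the same 3 plates, so they are not further replicates of the plate difference. Fos did overlap, with 522 to 543 CPM in the classes of plate 3 against 508 CPM in the Low class of plate 1. A single Low cell of plate 1 held 31 Fos UMIs, and without it that class went to 356 CPM without TMM scaling, against 484 with it.

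Other early and stress genes differed from the members in which of them were high in plate 3. Of 11 heat shock genes with enough counts, 3 were at least 2-fold higher in plate 3 than in both other plates, namely Hspa1a, Hspa1b and Hsph1. The chaperone genes Hspa1a and Hspa1b are near-identical copies whose reads may be split between them. Hspa1b had 278 CPM in plate 3, against 26.6 CPM in plate 1 and 17.4 CPM in plate 2. The Hsp70 partner Hsph1 had 99.6 CPM, against 28.1 CPM in plate 1 and 40.3 CPM in plate 2. Of 20 other early response genes 1, Klf4, passed the same 2-fold rule, and several that are commonly induced together with Fos were nearly level. Ier2 had 123 CPM in plate 3, against 96.8 CPM in plate 1 and 124 CPM in plate 2. Dusp1, a phosphatase that ends MAP kinase signals, had 105 CPM, against 112 CPM in plate 1 and 98.8 CPM in plate 2. Of 15 upstream kinases and factors 1 passed, Mapk8, the gene of the kinase JNK1 that phosphorylates Jun, with 38.7 CPM in plate 3, against 18.2 CPM in plate 1 and 18.3 CPM in plate 2. None of 10 TCR-induced genes passed, but with 1.30% of all genes passing, short lists may hold none. The median log2 ratio of these 10 was -0.28 to plate 1 and -0.35 to plate 2. Cd5 had 174 CPM in plate 3, against 292 CPM in plate 1 and 263 CPM in plate 2. Cd69 went the other way, with 200 CPM in plate 3, against 174 CPM in plate 1 and 95.2 CPM in plate 2. Of 6 family members and partners none passed, and Mafk had 58.8 CPM in plate 3, against 19.6 CPM in plate 1 and 34.8 CPM in plate 2. Nr4a2, Nr4a3, Egr2 and Egr3, the close relatives of Nr4a1 and Egr1, had 3, 1, 9 and 1 UMIs in all.

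Genes listed as markers of other cell types also differed between plates. The 4 B cell markers summed to 35.8 CPM in plate 3, against 2.81 CPM in plate 1 and 4.57 CPM in plate 2. The 3 regulatory T cell markers summed to 86.7 CPM in plate 3, against 25.2 CPM in plate 1 and 72.3 CPM in plate 2. Of these, Foxp3 was in 14.8% of cells of plate 3, against 0 of 172 cells in plate 1, which allows up to 1.74%, and 3.98% in plate 2. Il2ra was in 2.16% of plate 3 cells, against 1.16% in plate 1 and 1.99% in plate 2. Ikzf2 was in 5.25% of plate 3 cells, against 6.40% in plate 1 and 4.48% in plate 2. The 2 listed myeloid markers in the table, Cst3 and Ctss, summed to 209.98 CPM in plate 3, against 300.1 CPM in plate 1 and 263 CPM in plate 2. Ctss was in 40.2% of all cells and Cst3 in 19.9%, so their sum does not mark a separate cell type here. The part of these cell types in the plate difference of the members was not tested. The CD8 T cell markers summed to 9.82 to 17.2 CPM over the plates, and those of erythroid cells to 0 to 2.81 CPM.

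The high Fosb and Jun of plate 3 were not limited to its heat shock cells. At least 3 UMIs of Hspa1a and Hspa1b together were found in 65 cells, of which 58 were in plate 3, 4 in plate 1 and 3 in plate 2. In plate 3, Fosb was in 48.3% of the 58 such cells and in 45.1% of the other 266, at 146 and 214 CPM without TMM scaling. Jun was in 91.4% and 86.1%, at 809 and 862 CPM without TMM scaling. The heat shock cells were deeper, with a median of 5724 UMIs against 3444, and at 1 depth Fosb was in 27.0% of them and in 32.1% of the others. At 1 depth Fos was in 61.3% of heat shock cells and 54.4% of the others. Without heat shock cells in any plate, Fosb was still 3.66-fold higher in plate 3 than in plate 1 and 4.49-fold higher than in plate 2, and Jun 2.44-fold and 2.88-fold. The wait of each plate before lysis was not given in the sources used here, and handling of a plate cannot be told apart from its cells.

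Position on the plate was the only handling variable that the files hold. Along the well number, with the cells of a plate in 4 bins of equal size, no member passed edgeR's quasi-likelihood test among 5067 genes, of which 0.00% passed, with 234 or 4.62% at an unadjusted p under 0.05 (DESeq2's Wald test called 0 as well). None of the 8 members tested had an unadjusted p under 0.05. Slopes ran from -0.15 log2 per bin for Myc (SE 0.16, unadjusted p = 0.356) to 0.18 for Egr1 (SE 0.16, unadjusted p = 0.285), with no adjusted p under 0.05, and Jun had 0.00 (SE 0.05) and Fosb 0.09 (SE 0.13). Nab2 had too few counts to pass the filter here and in the CD5 fits over all 3 plates. The well ranges of the plates differ, with wells 1 to 382 in plate 3, 1 to 289 in plate 1 and 119 to 383 in plate 2.

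**Figure D2:**
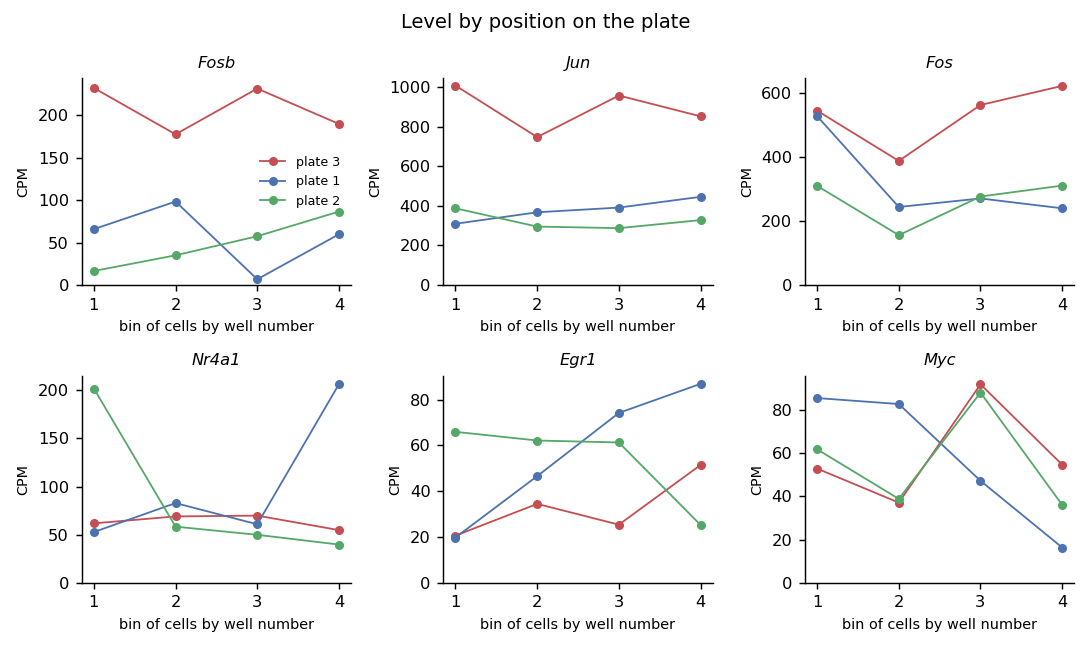
Level (CPM, y axis) of 6 genes in 4 equal bins of the cells of each plate, ranked by well number (x axis), with a line for each plate. In all 4 bins Fosb and Jun were higher in plate 3 than in plates 1 and 2, and none of the 6 genes passed the test along the wells.

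With CD5, no member passed the test in either fit. Between the High and Low classes edgeR's quasi-likelihood test called 9 of 4813 genes, or 0.187%, and 0 of the 8 members tested (1 of 8 at an unadjusted p under 0.05, against 6.17% of all genes). DESeq2's Wald test called 0 genes. Along CD5 edgeR called 6 of 5019 genes, or 0.120%, and DESeq2 called 3, and again 0 of 8 members passed (2 at an unadjusted p under 0.05, against 4.84% of all genes). The members' median log2 fold change between the classes was 0.01, and that of all genes tested was 0.00. Without plate 2 the test called 20 of 5113 genes, or 0.391%, and 0 of the 9 members, whose median was -0.18 against -0.01 for all genes. Along CD5 without plate 2 it called 14 of 5016 genes, or 0.279%, and again 0 of the 9 members.

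Myc had the largest log2 fold change of the 8. It had 54.2, 70.4 and 72.5 CPM in the High classes of plates 1, 2 and 3, against 30.5, 26.6 and 43.1 CPM in the Low classes of plates 1, 2 and 3. The groups did not overlap, with 65.7 ± 9.998 CPM in High and 33.4 ± 8.66 CPM in Low (SD, n = 3 plates). The share of all genes whose groups separate in this way was not taken, and 1 of the plates, plate 2, goes against its CD5 labels. These values rest on 10, 19 and 20 UMIs in High and 6, 6 and 15 UMIs in Low. In edgeR's fit the log2 fold change was 0.96 (SE 0.45, interval 0.06 to 1.86, unadjusted p = 0.0379, adjusted p = 0.795), and the slope was 0.42 per doubling of CD5 (SE 0.18, adjusted p = 0.970), positive in 3 of 3 plates. Without plate 2 the fold change was 0.75 (SE 0.56, adjusted p = 0.945) and the slope 0.35 (SE 0.22, adjusted p = 0.984). Of the 15 Myc UMIs in the Low class of plate 3, 9 came from 1 cell. Without the top cell of each member the fold change was 1.41 (SE 0.48, adjusted p = 0.584). Myc was found in 13.7% ± 4.06 of High cells and 9.57% ± 2.61 of Low cells (SD, n = 3 plates), higher in plates 3 and 2 and lower in plate 1 (two-sided p = 0.5 by an exact permutation test that flips signs, which cannot give less than 0.25 with 3 plates).

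Nr4a1 and Egr1, which TCR signals can induce, had wide intervals. Nr4a1 had 108, 66.7 and 79.8 CPM in the High classes of plates 1, 2 and 3, against 173, 17.7 and 43.1 CPM in the Low classes of plates 1, 2 and 3. The groups overlapped, since Low was above High in plate 1. The fold change in edgeR's fit was 0.29 (SE 0.45, interval -0.62 to 1.21, adjusted p = 0.982). Of the 34 Nr4a1 UMIs in the Low class of plate 1, 28 came from 1 cell, and without that cell the class went to 30.1 CPM without TMM scaling, against 165 with it. The slope was 0.25 per doubling of CD5 (SE 0.18, unadjusted p = 0.167). Without the top cell of each member the fold change was 1.32 (SE 0.45, unadjusted p = 0.0053, adjusted p = 0.584) and the slope 0.76 per doubling of CD5 (SE 0.19, unadjusted p = 0.00022, adjusted p = 0.117), still not past the threshold. Without plate 2 the fold change was -0.03 (SE 0.46, adjusted p = 0.997) and the slope 0.01 (SE 0.16, unadjusted p = 0.967). The share of cells with Nr4a1 was 16.1% ± 2.97 in High and 12.2% ± 4.67 in Low (SD over 3 plates, with p = 0.5 by the exact sign-flip permutation test), higher in plates 1 and 2 and lower in plate 3. Over the classes it was 13.2% in Low, 13.8% in Middle and 16.1% in High cells.

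Egr1 had 16.3, 81.5 and 14.5 CPM in the High classes of plates 1, 2 and 3, against 35.5, 0 and 37.4 CPM in the Low classes of plates 1, 2 and 3. High was above Low in plate 2 and below it in the other two. The 46 Low cells of plate 2 held no Egr1 UMI, which at 3 counts of that total allows a share of cells with a UMI of up to 6.52%. The fold change was 0.49 (SE 0.67, interval -0.87 to 1.85, adjusted p = 0.977), and without plate 2 it was -1.28 (SE 0.77, adjusted p = 0.893). The slope was 0.52 per doubling of CD5 (SE 0.28, unadjusted p = 0.0703), and without plate 2 it was -0.0048 (SE 0.26). With the CD5 value of the next well given to each cell of plate 2, a displacement tried because Cd5 mRNA does not follow the labels there, the fold change was -0.84 (SE 0.65, adjusted p = 0.858).

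Of the Fos and Jun genes, Fos was furthest from 0 with CD5, and none passed the test. Fos had 309, 241 and 522 CPM in the High classes of plates 1, 2 and 3, against 508, 279 and 543 CPM in the Low classes of plates 1, 2 and 3. High was below Low in each plate, though the groups overlapped across plates. The fold change was -0.33 (SE 0.21, interval -0.76 to 0.09, adjusted p = 0.907) and the slope -0.19 per doubling of CD5 (SE 0.08, interval -0.36 to -0.03, unadjusted p = 0.0186, adjusted p = 0.901), negative in 3 of 3 plates. Without the top cell of each member the fold change was -0.17 (SE 0.21, adjusted p = 0.971), since the cell with most Fos was a Low cell of plate 1. Without plate 2 it was -0.38 (SE 0.23, adjusted p = 0.9001) and the slope -0.23 (SE 0.09, adjusted p = 0.670).

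Fosb had 70.5, 66.7 and 160 CPM in the High classes of plates 1, 2 and 3, against 45.7, 44.3 and 233 CPM in the Low classes of plates 1, 2 and 3. Its direction differed between plates, and the fold change was 0.03 (SE 0.34, interval -0.66 to 0.71). Jun had a fold change of -0.04 (SE 0.17, interval -0.37 to 0.30), Junb of -0.14 (SE 0.16, interval -0.46 to 0.17) and Jund of 0.00 (SE 0.13, interval -0.27 to 0.27). For Jund, Jun and Junb the intervals leave out a change of 1.5-fold in either direction. Without plate 2 the values were -0.23 for Fosb, -0.20 for Jun, -0.17 for Junb and -0.18 for Jund. Nab2 passed the filter in the CD5 fits without plate 2 and not in the main fits over all 3 plates. It had 21.7, 18.5 and 47.1 CPM in the High classes of plates 1, 2 and 3. In the Low classes of plates 1, 2 and 3 it had 10.2, 4.43 and 63.2 CPM. These values rest on 1 to 22 UMIs a class. Without plate 2 its fold change was -0.07 (SE 0.78, adjusted p = 0.997) and its slope -0.09 per doubling of CD5 (SE 0.29). Slopes of Fosb, Jun, Junb and Jund lay between -0.07 and 0.01 per doubling of CD5, and without plate 2 between -0.10 and -0.03.

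**Figure D3:**
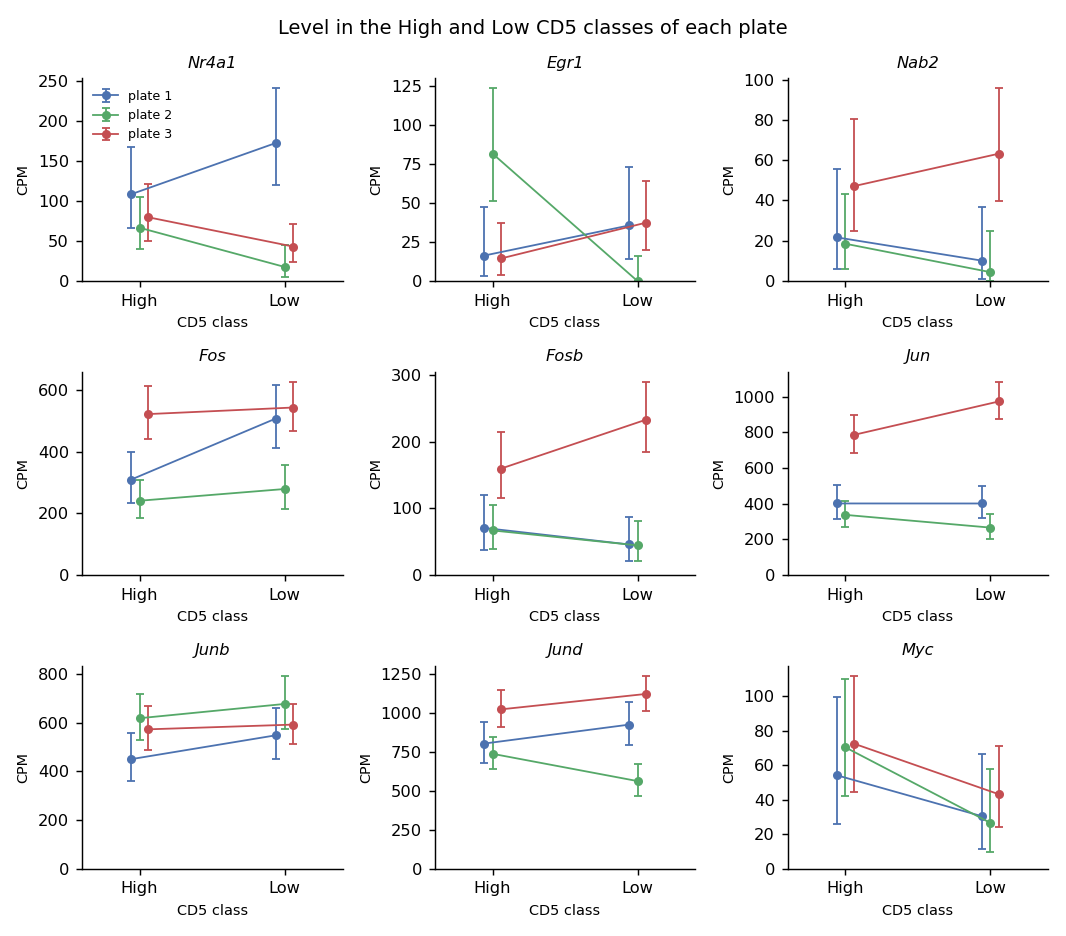
Level (CPM, y axis) of the 9 genes in the High and Low CD5 classes (x axis), with a line for each plate and bars for 95% counting intervals. Myc was higher in High than in Low in each of 3 plates, Fos was lower in each, and the plate 3 values of Fosb and Jun lay above those of plates 1 and 2 in both classes.

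**Figure D4:**
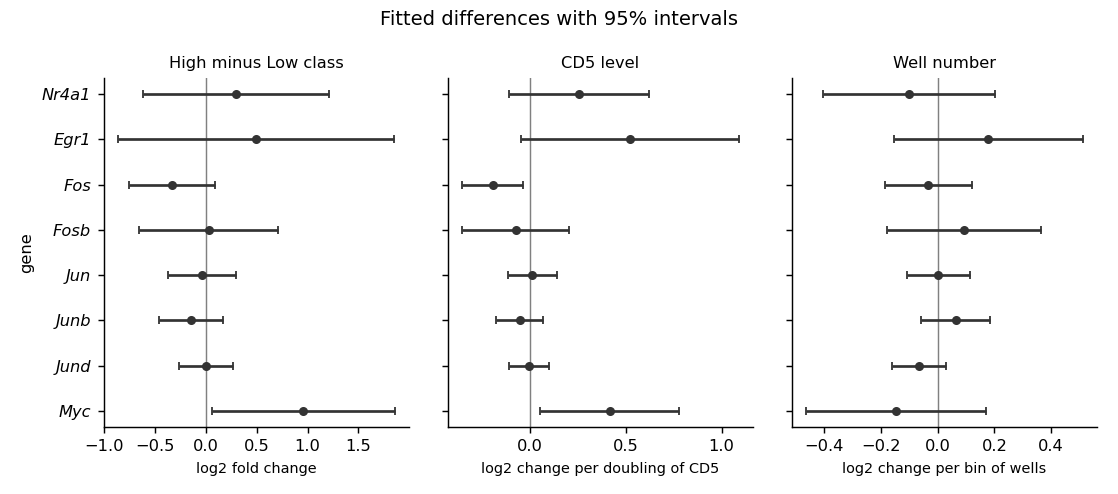
Log2 fold change of High over Low (left), slope per doubling of CD5 (middle) and slope per bin of wells (right) from edgeR, with 95% intervals, for the 8 members tested. The intervals of Myc in the CD5 fits and of Fos along CD5 lay off 0, and none of these passed after adjustment over all genes.

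Among genes that accompany the members in T cells, the TCR-induced list held 2 that were called between the CD5 classes, 1 of them Cd5 itself. Of its 10 tested members, 2 rose between the classes, where 0.187% of all genes were called, Cd5 at a log2 fold change of 1.70 (adjusted p = 0.0023) and Folr4 at 1.16 (adjusted p = 0.0245). Neither was called without the plate block, without plate 1 or without plate 3, and over 14 alternatives Cd5 was called in 10, at 1.20 to 2.76, and Folr4 in 7, at 0.92 to 1.78. Cd5 encodes the protein by which the classes were set, so its call is not independent of the grouping. In edgeR's fit along CD5 only 1 gene of the list was called, Cd5. Folr4 had a slope of 0.45 per doubling of CD5 there (adjusted p = 0.173). The list's median between the classes was 0.44 and 7 were positive. Cd6 at 1.26 (adjusted p = 0.100) and Nfatc1 at -0.81 (adjusted p = 0.793) did not pass. The 17 other early response genes had 11 positive values, a median of 0.02 and none that passed, with Dusp2 at 0.43 (SE 0.23) and Ier2 at 0.45 (SE 0.29). The 11 heat shock genes had a median of -0.03 and none that passed, with Hspa5 at 0.68 (SE 0.23, adjusted p = 0.603) and Hspa1b at -0.45 (SE 0.39). The 13 upstream kinases and factors had 9 positive values and a median of 0.35, and none passed. Of the 3 family members tested, Nab1 had 0.62 (SE 0.41), and none passed. Without plate 2 the genes called in these lists were Cd5 at 2.76 (adjusted p = 1.21e-09), Cd6 at 2.25 (adjusted p = 1.53e-06) and Folr4 at 1.53 (adjusted p = 0.00337), with none in the other 4 lists.

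Of the members, Nr4a1 and Egr1 had the most uneven spread of transcripts over cells. Of the 99 cells with Nr4a1, 68 held 1 UMI, and the top 5 cells held 35.6% of its 245 UMIs. Of the 56 cells with Egr1, 34 held 1 UMI, and the top 5 held 38.4% of its 138. For Fosb the top 5 cells held 9.72% of its 371 UMIs, for Myc 19.4% of 175 and for Jun 4.20% of 1787. Nab2 had 25.7% of its 78 UMIs in its top 5 cells. At 1 depth the variance of UMIs over cells was 5.01 ± 4.46 times the mean for Nr4a1 and 3.53 ± 1.73 times for Egr1 (SD, n = 3 plates). It was 2.03 ± 0.682 for Myc, 2.10 ± 0.299 for Junb, 1.73 ± 0.260 for Fos, 1.65 ± 0.312 for Jun and 1.64 ± 0.403 for Fosb. The value of Nr4a1 was 1.53 over plate 3 cells, 3.45 over plate 1 cells and 10.04 over plate 2 cells, so it differed widely between plates.

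The 3 cells with most Nr4a1 held no Fosb, and 4, 0 and 3 UMIs of Fos, against a mean of 1.70 Fos UMIs over all cells. The first, a Low cell of plate 1, held 28 Nr4a1 UMIs with 15 of Junb, 8 of Nfkbid, an NF-kB regulator induced by TCR signals, and 4 of Cd69, an early activation marker, but no Egr1. A Middle cell of plate 2 held 24 Nr4a1 UMIs with 11 of Egr1, 7 of Nfkbid and 0 of Fos. Another Middle cell of plate 2 held 22 Nr4a1 UMIs with 1 of Egr1, 3 of Fos and 14 of Cd5. Each of these 3 cells held no UMI of Fosb, Hspa1a or Hspa1b. The cell with most Fos held 31 Fos UMIs and 4 of Fosb and none of Nr4a1 or Egr1.

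Nr4a1 and Egr1 had the highest ratio of co-detection among the members. For each of 36 pairs, the cells with both genes were set beside the number that the 2 shares multiply to within each plate and each of its 4 bins of depth. These are counts over cells, given as a description, and pairs that share a gene are not independent. Nr4a1 and Egr1 were together in 17 cells, against a product of 8.58, a ratio of 1.98, which was the highest of the 36, though rare genes also allow the highest ratios. The ratio was 2.95 in thinned cells and 1.86 without heat shock cells. There were 6 such cells in plate 3 (product 3.91), 3 such cells in plate 1 (1.98) and 8 such cells in plate 2 (2.69). The 17 cells held 31.04% of all Nr4a1 UMIs and 44.2% of all Egr1 UMIs, and 1 was a Low, 10 were Middle and 6 were High cells. Of the 6 High cells, 4 were in plate 2, which goes against its CD5 labels. Egr1 and its partner Nab2 were together in 7 cells (product 4.85), and Nr4a1 and Myc in 18 (14.0).

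The AP-1 genes had ratios near 1, but genes found in most cells leave a ratio little room above 1, so its size cannot be compared with that of rare pairs. Fos and Jun were together in 306 cells (product 297, ratio 1.03), Fos and Fosb in 128 (129, ratio 0.996), Fosb and Jun in 163 (161, ratio 1.01) and Jun and Junb in 373 (361, ratio 1.03). Fosb was with Nr4a1 in 25 cells (30.4, ratio 0.822) and with Egr1 in 12 (15.8, ratio 0.758). Over the 36 pairs the median ratio was 1.02 and the range 0.751 to 1.98, with 25 above 1 and 7 above 1 in each of the 3 plates. Without the depth strata, the median ratio was 1.07 and 30 pairs were above 1.

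**Figure D5:**
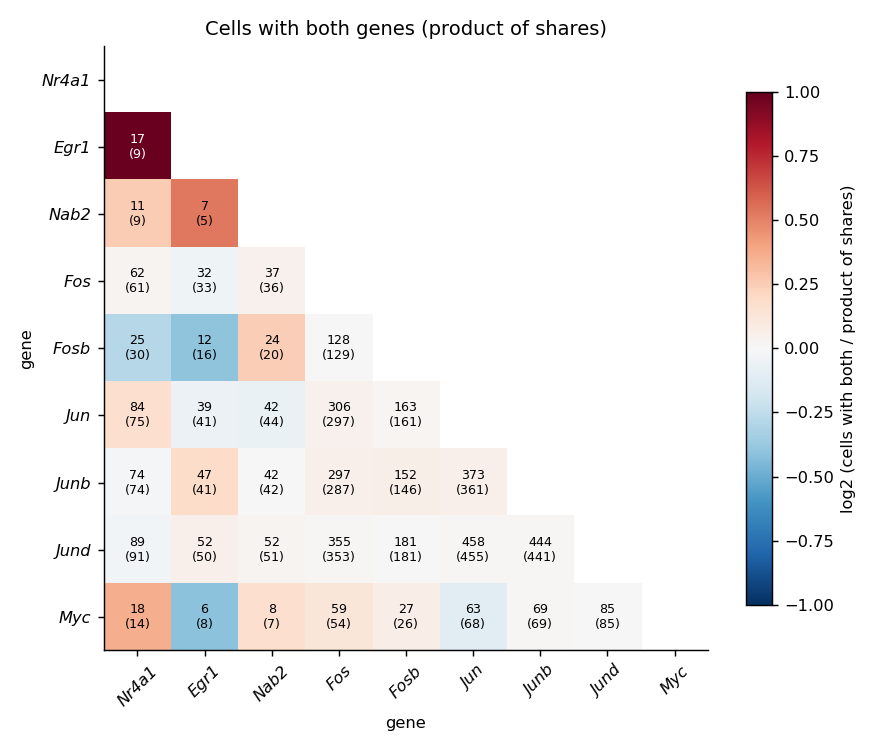
Number of cells with UMIs of both genes for each pair, with the product of their shares within plate and depth bin in parentheses, and colour for the log2 ratio of the first to the second. Nr4a1 with Egr1 is the darkest cell, at 17 cells against 8.58, and pairs among Fos, Fosb, Jun, Junb and Jund lie near white.

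Cells with Nr4a1 or Egr1 held more of the TCR-induced list in each plate, and so did cells with Jun. Cells with Fosb or Jun did not hold more heat shock transcripts in every plate, but cells with Junb or Egr1 did. At 1 depth, cells with Nr4a1 held on average 3.05 UMIs of the 14 TCR-induced genes in plate 3, against 2.71 in cells without it, 7.17 against 3.24 in plate 1 and 4.40 against 2.71 in plate 2. For Egr1 the means were 2.90 in cells with it against 2.73 in cells without it in plate 3, 5.54 against 3.45 in plate 1 and 3.92 against 2.78 in plate 2. The direction held in 3 of 3 plates for both, though there were only 7.0 to 25.6 such thinned cells per plate and gene, averaged over draws. Cells with Jun held 2.75 against 2.72 in plate 3, 3.60 against 3.54 in plate 1 and 2.95 against 2.76 in plate 2. The excess was not particular to this list. Cells with Nr4a1 also held more of the other early response genes, at 14.9 against 14.6, 15.3 against 11.7 and 17.7 against 13.4 in plates 3, 1 and 2. They held more of the upstream kinases and factors in 3 of 3 plates too. Cells with Jun held more of the other early response genes in 3 of 3 plates, and cells with Egr1 in 1. For the 12 heat shock genes, cells with Fosb held 9.35 UMIs against 9.26 in cells without it in plate 3, 5.36 against 5.76 in plate 1 and 6.41 against 6.90 in plate 2. Cells with Jun held 9.11 against 9.89 in plate 3, 6.01 against 5.48 in plate 1 and 6.60 against 7.03 in plate 2. Cells with Junb held more in plates 3, 1 and 2, at 9.51 against 8.94, 5.83 against 5.64 and 6.91 against 6.82. So did cells with Egr1, at 9.55 against 9.28, 6.68 against 5.67 and 7.71 against 6.82. Cells with Fos or Jund held more in 2 of 3 plates. For the heat shock list, plate 3 differed from plates 1 and 2 by more than cells with these members differed from cells without them.

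Median CD5 was higher in cells with Nr4a1 than in cells without it in each plate, at log2 ratios of 0.12, 0.51 and 0.21 in plates 3, 1 and 2. For Myc the ratios were 0.16, 0.09 and 0.07 in plates 3, 1 and 2. For Egr1 they were 0.43, -0.36 and 0.58 in plates 3, 1 and 2, and for Fos -0.22, 0.07 and -0.12. Plate 2 goes against its CD5 labels, so its ratios carry that limit, and they were not taken with the CD5 of the next well. Cells with Nr4a1 were also the deeper ones, and the part of depth in these ratios was not tested. With 3 plates an exact sign-flip permutation test cannot give a p below 0.25.

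The genes most like each member over single cells were sought among 4657 genes by the mean over plates of the within-plate Pearson correlation of log2 thinned UMIs in 557 cells. For Nr4a1 they were Nfkbid at 0.24, Egr1 at 0.23 and Pea15a at 0.19. For Egr1 they were Nr4a1 at 0.23, Mlxip at 0.20 and Larp4 at 0.16. The correlation of Nr4a1 with Egr1 was 0.15 over plate 3 cells, 0.00 over plate 1 cells and 0.53 over plate 2 cells. For Fos, Fosb, Jun, Junb, Jund and Myc the highest value of any gene was 0.152, for Myc with Ybey. Those values are too weak in counts this sparse to set the named genes apart. For Jun the first were Zfp36l1 at 0.12 and Cd69 at 0.11, and for Fos the first was Ccnl2 at 0.11. Cells of a plate share their library, and no p is given.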

How the data were processed

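The 3 samples are plates of freshly sorted naive CD4 T cells, and the plate is the replicate. The authors gave gene values in expected counts, which are UMIs corrected to transcript numbers and not scaled. CD5 was deposited as a cytometer signal of each sorted cell, and the CD5 classes are the authors' own. Per the submitters' processing notes BWA and mm10 were used, with a version not given in the sources used here. Spike-ins (19.6% of counts) were left out.

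Counts were summed by plate and CD5 class (9 sums) or by plate and 4 equal bins of CD5 or of well number (12 sums) and rounded. The test was edgeR 4.0.16's (quasi-likelihood, TMM, filterByExpr, two-sided, Benjamini-Hochberg over all genes tested, threshold 0.05) in R 4.3.3, with the plate as a block. Dispersions were shrunk between genes, with 37.9 prior and 4 residual degrees of freedom by class, so a small p need not mean that plates concur. The block follows from the design, since sums of a plate share their library. Sums of the same plate deviated together from class means (r of 0.188 to 0.493 over 929 abundant genes). The script was tested on simulated data. DESeq2 1.42.0, Python 3.11.15, numpy 2.4.6, pandas 2.3.3, scipy 1.17.1 and matplotlib 3.10.9 were also used. Thinning drew 2119 UMIs per cell 10 times. Doublets were not called, since each well received a sorted singlet.

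The members and the lists beside them were chosen with earlier results of these data known. All 9 members are named, of each other list up to 4 genes of smallest p between High and Low, and up to 3 genes most like a member. Plate levels of other genes, the 2-fold plate rule, the promoter core and the removal of top cells were chosen after values were seen.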

Additional observations from a re-analysis of the deposited data

How the results depend on the processing

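Under no alternative did any of the 8 members of the main fits pass the threshold. Nab2 was followed only in the CD5 fits without plate 2, where it did not pass. Between the High and Low classes 9 genes were called. The count was 16 without a filter, 25 with plate 2 cells given the CD5 of the well after them, 1 without the cell richest in Kcnq1ot1, and 0 by DESeq2's Wald test (147 at an unadjusted p under 0.05). Along CD5, 6 were called, with 10 without a filter, 16 with the next well, 1 without that cell and 3 by the Wald test. Along the wells 0 were called, with 6 without a filter and 3 in thinned cells. Without the plate block the counts were 0 between the classes (198 at an unadjusted p under 0.05) and 0 along CD5 (179). Leaving out each plate gave 0 to 20 genes between the classes, with 20 without plate 2, 0 to 14 along CD5, with 14 without plate 2, and 0 to 6 along the wells. The cause of these shifts was not tested.

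Fos, Junb and Myc kept their direction between the classes and along CD5 under every alternative that gave a value, as did Nr4a1 along CD5 and Jund along the wells. Directions turned as follows, in log2. Between the classes Nr4a1 was -0.47 in thinned cells and -0.03 to 1.17 with a plate left out, and Egr1 was -0.84 with the next well and -1.28 to 1.66 with a plate left out. Fosb was -0.19 without the block, -0.040 between outer CD5 bins set within plates, -0.0088 without heat shock cells and -0.23 to 0.60 with a plate left out. Jun was 0.014 between those bins and -0.20 to 0.16 with a plate left out. Jund was -0.0024 with DESeq2 size factors, -0.0022 by the Wald test, -0.014 without a filter, -0.0024 at a mean of at least 50 counts, -0.029 without the block, -0.055 with the next well, -0.015 thinned, -0.0063 without the Kcnq1ot1 cell and -0.18 to 0.10 with a plate left out.

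Along CD5 with a plate left out, Egr1 was -0.0048 to 0.99, Fosb -0.12 to 0.027, Jun -0.032 to 0.10 and Jund -0.061 to 0.043. Fosb was 0.095 with the next well and 0.069 thinned, Jun -0.050 without the block, -0.0061 with the next well and -0.065 thinned, and Jund 0.0049 thinned and 0.025 without top cells. Along the wells with a plate left out, Nr4a1 was -0.44 to 0.27, Egr1 -0.0082 to 0.47, Fos -0.13 to 0.089, Fosb -0.11 to 0.24, Jun -0.055 to 0.038, Junb -0.026 to 0.13 and Myc -0.35 to 0.047. Egr1 was -0.027 and Fos 0.0020 without top cells. In thinned cells Fos was 0.031, Jun -0.060 and Junb -0.0043, and without the block Jun was -0.0084. The mean of 3.56 members per cell was 2.78 after thinning and 3.06 to 3.75 with a plate left out. The count of 3 members at least 2-fold higher in plate 3 was 3 or 4 under each of 4 alternatives. Without top cells it was Fos, Fosb and Jun, with Nab2 at 1.94-fold over plate 1. UMI numbers limit Nr4a1, Egr1, Myc and Nab2 in any class of a plate.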
